A study of Mesocricetus auratus with 6 samples.

Results

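The histone variant genes H2AZ1 and H2AZ2, 6 genes of high mobility group (HMG) proteins and 2 histone chaperone genes were measured in uterine tissue of Syrian golden hamsters (Mesocricetus auratus) at day 5 of gestation. The 10 genes were H2AZ1, H2AZ2, HMGB1, HMGB2, HMGB3, HMGN1, HMGN2, HMGA1, ANP32E and NAP1L1. Members were all probe sets whose platform annotation names one of these genes, which gave 23 of the 22215 probe sets tested, and each gene had at least 1. The genes were chosen on earlier results of this same comparison, in which the log2 difference of H2AZ1 was one of the larger rises. Differences between the groups are therefore a description of the members, and no p-value is given for them.

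Uterine segments with an attaching embryo (implantation sites, 3 arrays) were compared with segments lying between embryos (interimplantation sites, 3 arrays). The labels state no treatment and give neither the animals' age nor any genetic change. The titles call each array a biological replicate and the submitters mention 3 animals, but no array is tied to an animal, so a p-value reflects only how far arrays of a group vary. The array was an Affymetrix one whose probes were designed on human transcripts, so a dim probe set shows neither that a transcript was absent nor that it did not change.

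H2A.Z is a form of histone H2A that replaces the common form at nucleosomes flanking active and poised promoters. It is brought in by the SRCAP and p400/TIP60 complexes and taken out by INO80 and by the chaperone ANP32E. HMGB proteins bend DNA through their HMG boxes, HMGN proteins bind the nucleosome itself, and HMGA proteins bind AT-rich DNA through short hooks. Several of these genes are expressed most in dividing cells, and dividing stromal cells are a known feature of the uterus around an implanting embryo.

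H2AZ1 and HMGB1 were higher at implantation sites at every one of their probe sets, and the remaining genes were not past the threshold at any. Of the 23 member probe sets, 5 were past an adjusted p of 0.05 in limma's test over all 22215 probe sets (Benjamini-Hochberg adjustment), all of them higher, where 0.702% of all probe sets were called higher and 0.356% lower. H2AZ1 supplied 2 of the 5 and HMGB1 supplied 3. The other 18 differed by between −0.16 and 0.21 on the log2 scale, 8 above 0 and 10 below. The median over the 23 was 0.01, beside −0.01 over all probe sets. Values are log2 RMA values as deposited, and differences are implantation minus interimplantation sites ± the SE (standard error) from limma.

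**Figure D1:**
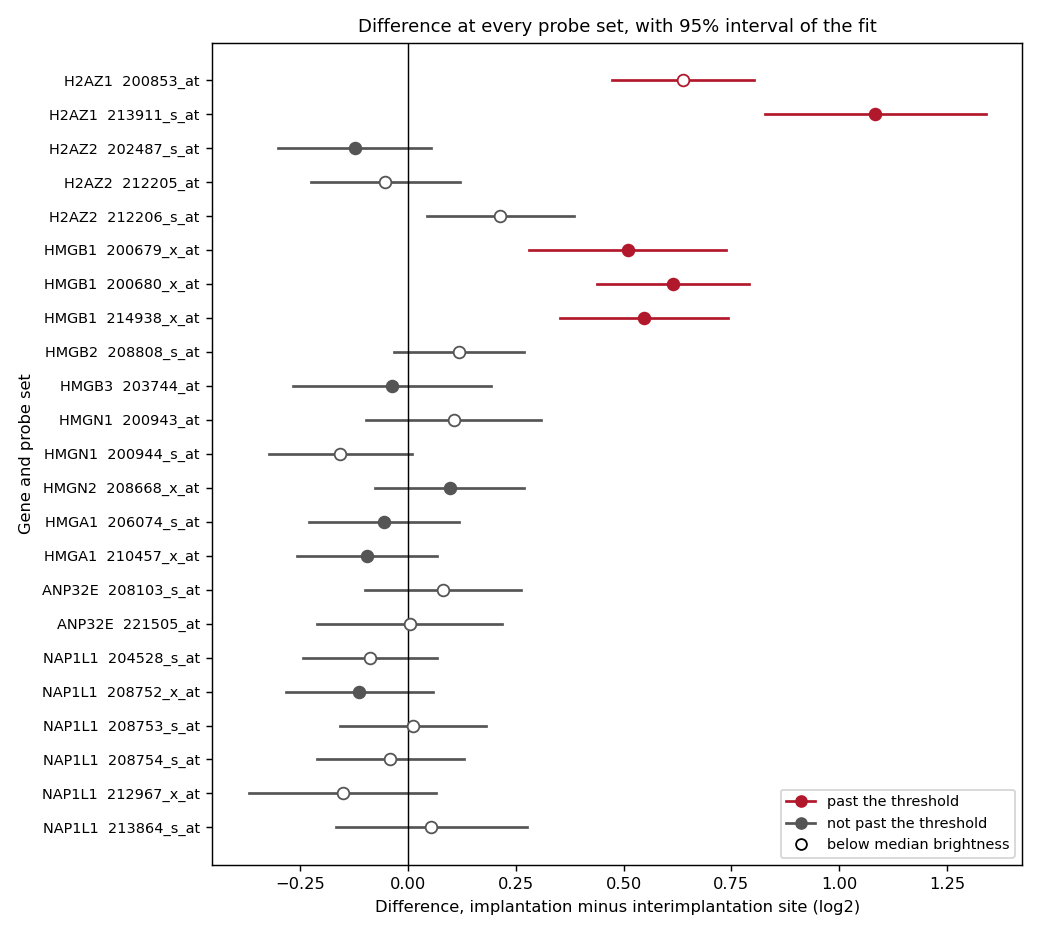
Difference between implantation and interimplantation sites (x axis, log2) at each of the 23 probe sets (y axis), as a point with the 95% interval of limma's fit. Red marks the 5 probe sets past the threshold, and open points mark probe sets below the median brightness; both H2AZ1 and all 3 HMGB1 probe sets have intervals to the right of 0, with differences from 0.51 to 1.08.

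H2AZ1 encodes the major H2A.Z protein. Its bright probe set 213911_s_at read 9.58, 9.60 and 9.57 at implantation sites 1, 2 and 3 and 8.40, 8.81 and 8.29 at interimplantation sites 1, 2 and 3. The implantation arrays were nearly equal, the interimplantation arrays spread more widely, and 0.76 separated the nearest arrays of the groups. The means were 9.58 ± 0.02 and 8.50 ± 0.27 (SD, n = 3). The difference was 1.08 ± 0.12 (log2, SE), or 2.12-fold, at rank 8 when all probe sets are ordered from the largest rise.

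The second H2AZ1 probe set, 200853_at, read 3.85, 3.75 and 3.82 at implantation sites and 3.17, 3.24 and 3.10 at interimplantation sites. The groups again did not overlap, with a gap of 0.51, although this probe set lay below the median brightness of 4.19. Its difference was 1.56-fold (log2 0.64 ± 0.08 SE). Its name marks it as designed against a single transcript, whereas _s_at probe sets match several transcripts alike and _x_at probe sets hold probes that may also bind unrelated sequences. Of the table as a whole, 0.406% of the plain _at kind, 0.84% of the _s_at kind and 1.69% of the _x_at kind were called higher.

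H2AZ2, whose protein is nearly identical to that of H2AZ1, was read by 3 probe sets and passed at none. The brightest, 202487_s_at, read 6.53, 6.55 and 6.51 at implantation sites and 6.51, 6.73 and 6.72 at interimplantation sites. The groups overlapped, and the difference was −0.12 ± 0.08 (SE), with a 95% interval from −0.30 to 0.05. The interval of the bright H2AZ1 probe set was 0.83 to 1.34, but H2AZ1 was chosen with its rise in this comparison known. The 2 intervals are therefore no test of the paralogs against each other, and that difference was not tested. The dim 212206_s_at pointed the other way, at 3.54, 3.37 and 3.36 against 3.17, 3.21 and 3.25 (log2 0.21 ± 0.08 SE). Its groups did not overlap, as was so for 7.72% of all probe sets in this direction. The third, 212205_at, was among the dimmest, at 2.13 ± 0.11 and 2.18 ± 0.03 (SD, n = 3).

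HMGB1, an abundant HMG-box protein that acts as a danger signal once it leaves the cell, was higher at 3 probe sets. At 214938_x_at it read 10.94, 10.77 and 10.77 at implantation sites and 10.19, 10.43 and 10.23 at interimplantation sites. At 200680_x_at it read 10.52, 10.48 and 10.43 against 9.75, 9.97 and 9.87. At the third, 200679_x_at, it read 5.99, 6.27 and 5.95 against 5.40, 5.70 and 5.58. The groups did not overlap at any of these, and the differences were 0.55 ± 0.09, 0.61 ± 0.08 and 0.51 ± 0.10 (log2, SE), or 1.46-, 1.53- and 1.42-fold.

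All 3 HMGB1 probe sets are of the _x_at kind, so none reads HMGB1 apart from possible cross-hybridisation, and they share a target. Of the 223 probe sets in the brightest 1% of the array, where 200680_x_at and 214938_x_at lie, 17.9% were called higher and 3.14% lower, and the bright H2AZ1 probe set lies there too. When the deposited values were quantile normalised once more, 214938_x_at was at 0.23 and not past the threshold, and 200680_x_at was at 0.36. The call at 214938_x_at was also lost without implantation site 1 or without interimplantation site 3. That at 200679_x_at was lost without any 1 of the 6 arrays.

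**Figure D2:**
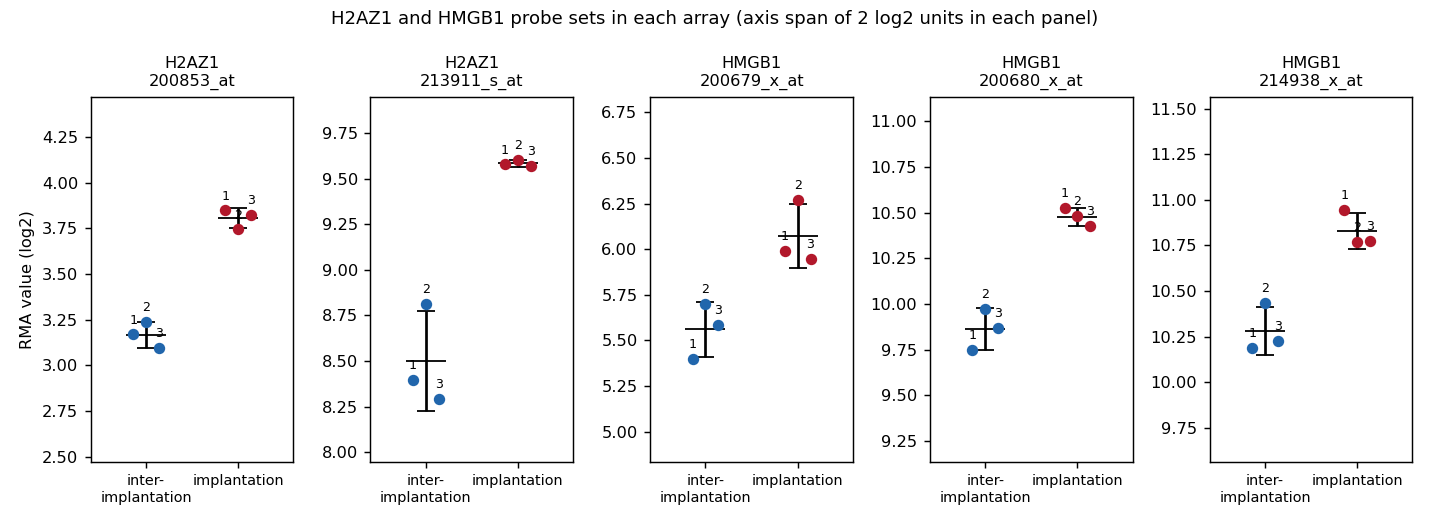
RMA value (y axis, log2) of the 2 H2AZ1 and 3 HMGB1 probe sets in each array, as numbered points, with the group mean and SD (n = 3) as black bars. Each panel spans the same number of log2 units; the implantation arrays lie above the interimplantation arrays in all 5 panels, and interimplantation site 2 is the highest of its group in each.

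Among the interimplantation arrays, array 2 was the highest at all 5 H2AZ1 and HMGB1 probe sets, that is, the nearest to the implantation arrays. At the 18 other member probe sets it was highest at 8. The same order held at 109 of the 156 probe sets called higher overall (69.9%), against 27.6% of all probe sets. Without this array the bright H2AZ1 probe set differed by 1.24. Both H2AZ1 probe sets passed with each of the 6 arrays removed in turn. H2AZ1 was chosen on these same arrays, so this is a description and no support for its rise.

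The paralogs of HMGB1 gave no called difference. HMGB2, an HMG-box protein linked with dividing cells, read 2.44, 2.44 and 2.40 at implantation sites and 2.31, 2.30 and 2.32 at interimplantation sites. The groups did not overlap, with a gap of 0.08, but the probe set 208808_s_at is dim, brighter than only 7.99% of probe sets, and the difference was 0.12 ± 0.07 (SE; 95% interval −0.03 to 0.27). HMGB3, the paralog best known from blood stem cells, was of ample brightness and read 5.51, 5.65 and 5.92 against 5.64, 5.71 and 5.84. Its groups overlapped, and its difference of −0.04 ± 0.10 (SE) had an interval of −0.27 to 0.19.

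The nucleosome-binding HMGN genes and HMGA1 stayed within small differences. HMGN2 read 5.40, 5.53 and 5.59 at implantation sites and 5.35, 5.47 and 5.41 at interimplantation sites, with overlapping groups and a difference of 0.10 ± 0.08 (SE; interval −0.08 to 0.27). The 2 probe sets of HMGN1 were dim and pointed opposite ways, at 0.11 ± 0.09 for 200943_at and −0.16 ± 0.08 for 200944_s_at (log2, SE).

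HMGA1, an architectural protein of AT-rich DNA, had differences just below 0 at both of its probe sets. At 206074_s_at it read 6.31, 6.20 and 6.42 against 6.39, 6.32 and 6.38 (−0.06 ± 0.08 SE), and at 210457_x_at 4.54, 4.57 and 4.42 against 4.63, 4.60 and 4.59 (−0.10 ± 0.07 SE). The groups overlapped at the first and were 0.02 apart at the other. Non-overlap in the lower direction held for 8.3% of all probe sets.

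The chaperones likewise had no probe set past the threshold. ANP32E, which strips H2A.Z from nucleosomes, was dim at both probe sets, with differences of 0.08 ± 0.08 at 208103_s_at and 0.00 ± 0.10 at 221505_at (log2, SE). NAP1L1, which carries H2A–H2B dimers, had 6 probe sets with differences from −0.15 to 0.05. The one at or above the median brightness, 208752_x_at, read 5.06, 5.03 and 4.96 at implantation sites and 5.04, 5.23 and 5.12 at interimplantation sites. Implantation arrays thus lay at the low end of an overlapping range (−0.11 ± 0.08 SE; interval −0.28 to 0.06).

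Brightness limits what can be said of the quiet members. Of the 23 probe sets, 13 lay below the median brightness, and 12 of the 18 that did not pass were among them. Across the array 1.22% of the brighter probe sets and 0.189% of the dimmer ones were called higher. The quiet members read with a signal above the median were H2AZ2, HMGB3, HMGN2, HMGA1 and NAP1L1, each at 1 probe set apart from HMGA1 with 2. Of the 5 probe sets past the threshold, the one nearest to it was 200679_x_at of HMGB1, at a difference of 0.51, and the nearest outside it was 212206_s_at of H2AZ2, at 0.21.

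**Figure D3:**
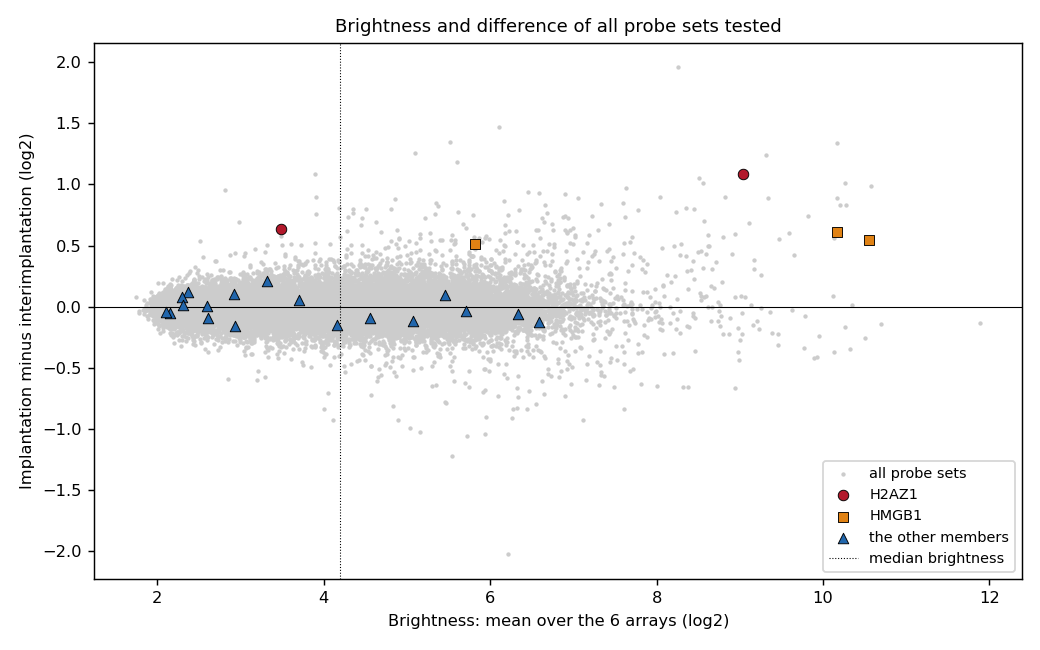
Mean over the 6 arrays (x axis, log2) and difference between implantation and interimplantation sites (y axis, log2) of all 22215 probe sets (grey), with H2AZ1 as red circles, HMGB1 as orange squares and the other members as blue triangles. The dotted line is the median brightness of 4.19; 4 of the 5 called members lie to its right, and the remaining members lie within the grey band.

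Genes were then read around the members, each at its brightest probe set, in a limma fit over 11963 genes in which 0.777% were called higher and 0.46% lower. Of 20 measured genes of the H2A.Z exchange complexes, 2 rose and 0 fell, with a list median of 0.01 beside −0.01 for all genes. RUVBL2, an ATPase shared by SRCAP, p400/TIP60 and INO80, rose from 6.23 ± 0.04 to 6.66 ± 0.05 (SD, n = 3; log2 0.43 ± 0.07 SE, adjusted p = 0.0132 in limma's test). MORF4L2, a subunit related to MORF4L1, rose by a log2 difference of 0.52 ± 0.11 (SE, limma adjusted p = 0.0492). RUVBL1, the partner ATPase of RUVBL2, was at 0.24 ± 0.09 (SE) and did not pass (limma adjusted p = 0.320). RUVBL2 missed the threshold without implantation site 2 or 3 or interimplantation site 3, with limma adjusted p from 0.0589 to 0.0666. MORF4L2 missed it in 9 of the 13 alternatives, with limma adjusted p up to 0.198.

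Of 29 measured histone chaperone genes, 0 passed in limma's test and the median was 0.03. At an unadjusted p under 0.05 there were 4 higher and 2 lower, where 5.68% and 5.22% of all genes were. NASP, a chaperone of H3–H4 and linker histones, was at 0.34 ± 0.08 (SE; limma adjusted p = 0.0801). NPM1, the abundant nucleolar chaperone nucleophosmin, was at 0.31 ± 0.08 (SE; limma adjusted p = 0.0812), and ATRX, which deposits H3.3, at −0.31 ± 0.08 (SE; limma adjusted p = 0.0887). Of 12 other histone variant and linker histone genes 0 passed in limma's test and 1 was higher at an unadjusted p under 0.05. That gene was H2AX, the variant phosphorylated at DNA breaks, at 0.29 ± 0.10 (SE; limma adjusted p = 0.283). It was at 0.18 without implantation site 1, and another of its 4 probe sets, 212524_x_at, was at −0.16 ± 0.07 (log2, SE) with groups that did not overlap. H1-4, a linker histone, was at 0.15 and H2BC21, an H2B gene, at 0.24. Without _x_at and _s_at probe sets 5 genes of this list were left, with a median of −0.06. Of these, 0 were called higher and 1 lower in limma's test.

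Differences of the other HMG and HMG-box genes were mostly below 0 and small. Of 16 measured, 0 passed in limma's test, and at an unadjusted p under 0.05 there were 0 higher and 3 lower. Differences lay below 0 in 15 of the 16, beside 52.4% of all genes, with a list median of −0.09, which was −0.03 over the 7 genes left without _x_at and _s_at probe sets. TFAM, the HMG-box protein of mitochondrial DNA, was at −0.28 ± 0.09, HMGN4 at −0.28 ± 0.09 and TOX3 at −0.19 ± 0.08 (log2, SE; limma adjusted p = 0.225, 0.238 and 0.436). All 3 were read at _x_at probe sets, and that of TOX3 was dim, at 2.28 ± 0.05 and 2.47 ± 0.12 (SD, n = 3). Their other probe sets were at −0.15 and 0.09 for TFAM, −0.08 and −0.03 for HMGN4, and −0.32 and −0.11 for TOX3. Of 9 receptors and partners of HMGB1 outside the cell, 0 passed in limma's test, and at an unadjusted p under 0.05 there were 0 higher and 1 lower. The lower one was CD24, a surface glycoprotein that binds HMGB1 (−0.27 ± 0.12 SE). CD24 was read at 216379_x_at, where the groups overlapped, and its other probe sets differed by between −0.21 and 0.10. SDC1, a heparan sulphate proteoglycan, was at 0.11 and the receptor TLR2 at 0.07, and each of these 2 changed sign in an alternative.

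Several cell cycle and replication genes were higher at implantation sites too. Of 25 measured genes, 4 rose and 0 fell in limma's test, where 0.777% and 0.46% of all genes did. The 4 include TUBA1B, a tubulin gene rather than a gene of the cell cycle or of replication. The list was chosen with earlier results of these data known, so the count is a description. At an unadjusted p under 0.05 there were 13 higher and 0 lower, where 5.68% and 5.22% of all genes were. Differences lay below 0 in 5 of the 25, beside 52.4% of all genes, among them AURKA and BUB1 at −0.009 and CCNB2 at −0.021. The list median was 0.21, but 0.12 with genes averaged over their probe sets and 0.07 over the 16 genes left without _x_at and _s_at probe sets. CKS2, a subunit of cyclin-dependent kinases, differed by 1.35 ± 0.16, the tubulin gene TUBA1B by 0.99 ± 0.09, cyclin A2 (CCNA2) by 0.80 ± 0.11 and the replication clamp gene PCNA by 0.54 ± 0.09 (log2, SE; limma adjusted p from 0.000375 to 0.0159). CKS2 and TUBA1B passed in all 12 alternatives in which they were measured. The alternative without _x_at and _s_at probe sets could not measure them. The CKS2 probe set is of the _s_at kind and every TUBA1B probe set is of the _x_at kind. PCNA missed the threshold without implantation site 3 or interimplantation site 3 (limma adjusted p = 0.0860 and 0.0821), and CCNA2 with the mean of its probe sets (0.0591). The PCNA probe set was dim, at 2.78 ± 0.10 and 2.24 ± 0.16 (SD, n = 3), below the median brightness of 4.19. Another CCNA2 probe set, 213226_at, was at 0.02 ± 0.10 (log2, SE). The part of this list in the H2AZ1 and HMGB1 values was not tested. In pieces of tissue, more cells of one type and more RNA per cell cannot be told apart.

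**Figure D4:**
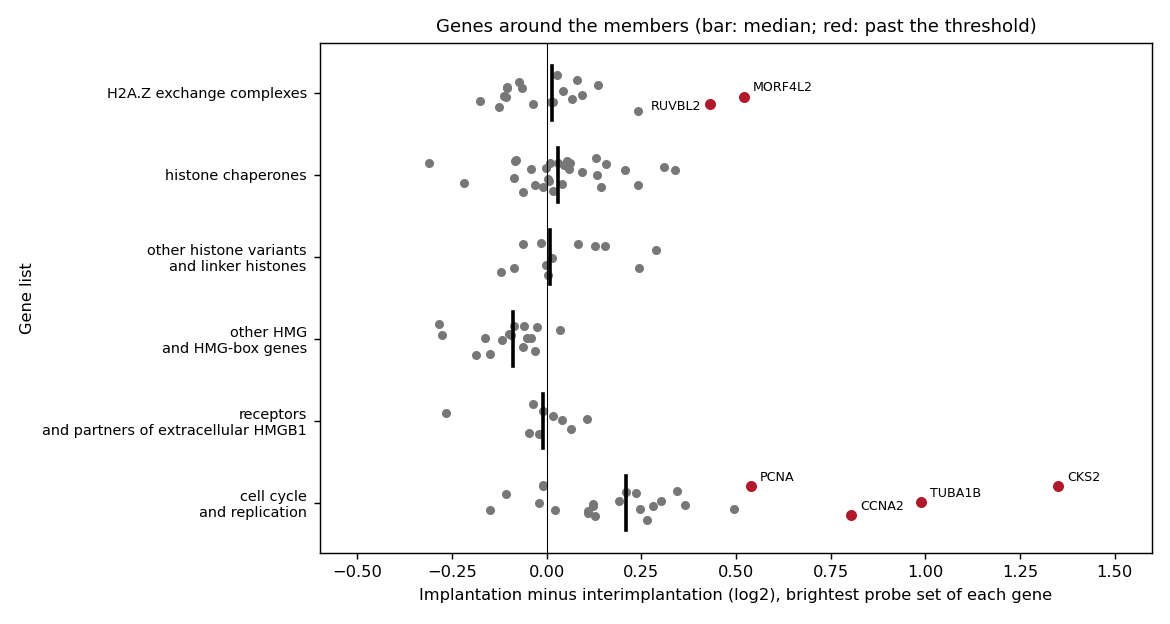
Difference between implantation and interimplantation sites (x axis, log2) of each measured gene in 6 lists around the members (y axis; vertical jitter has no meaning), with the list median as a black bar and genes past the threshold in red and named. The cell cycle and replication median is the highest, at 0.21, and the other HMG and HMG-box genes sit mostly below 0.

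The profile of H2AZ1 over the 6 arrays was set against those of 7273 other genes at or above the median brightness, each centred on its own mean. The 5 nearest genes were HNRNPD, RAN, TUBA1B, EIF5A and FBLN1, at root mean square distances of 0.11, 0.13, 0.14, 0.15 and 0.16 log2 units. They encode an RNA-binding protein, the GTPase of nuclear transport, a tubulin, a translation factor and a matrix protein. Within the interimplantation group each was highest at site 2, as H2AZ1 was, which a choice by profile over the same arrays favours. Of their probe sets, 3 of 6 for HNRNPD, 1 of 2 for RAN, 5 of 5 for TUBA1B, 1 of 3 for EIF5A and 1 of 5 for FBLN1 were called higher. All 5 TUBA1B probe sets are of the _x_at kind. One HNRNPD probe set, 213359_at, pointed the other way by as much (log2 −0.90 ± 0.23 SE) and was not past the threshold. HMGB1 stood at rank 46 with a distance of 0.29, and H2AZ2 at rank 5688 with 0.62.

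Array medians lay between 4.18 and 4.20, and arrays correlated at 0.989 to 0.995 within and 0.985 to 0.992 between groups over all probe sets. The 3′ minus 5′ signal of control probe sets reflects RNA quality and, on human probes, also their match to hamster RNA. For the actin control it was −2.08 ± 0.22 at implantation and −1.70 ± 0.15 at interimplantation sites, with groups that did not overlap (log2, SD, n = 3, two-sided exact permutation p = 0.1, the smallest possible). For the GAPDH control it was −0.20 ± 0.16 and 0.13 ± 0.17, with overlapping groups (log2, SD, n = 3; exact permutation p = 0.2). Of 31 measured cell type markers, 1 was called higher and 3 lower in limma's test over all genes. The mean log2 level of the smooth muscle list ran from 5.23 to 5.29 at implantation and from 5.43 to 5.68 at interimplantation sites, but its members differed: ACTG2 (−0.80) and TAGLN (−0.56) fell, while CNN1 was at −0.23, MYH11 at 0.00 and ACTA2 at 0.15. For leukocytes it ran from 4.07 to 4.17 and from 4.18 to 4.27. Of that list SPI1 fell (−0.49), while PTPRC was at −0.05, CD14 at 0.00 and CSF1R at 0.05. List means were also apart for epithelium (3.57 to 3.65 against 3.76 to 3.84) and erythroid cells (6.15 to 6.37 against 6.47 to 6.52), with 0 markers called in either (limma; 2 of 5 and 1 of 2 were lower at an unadjusted p under 0.05). Of the epithelium markers 1 of 5 was above the median brightness. KRT19 was at −0.39, KRT8 at −0.24, KRT18 at −0.13, EPCAM at −0.07 and CDH1 at −0.03. The list means overlapped for uterine stroma (6.22 to 6.37 against 6.16 to 6.24), endothelium (4.38 to 4.45 against 4.44 to 4.57) and trophoblast (4.24 to 4.33 against 4.25 to 4.31). The collagen gene COL1A1 of the stroma list rose (0.56 ± 0.09 SE, limma adjusted p = 0.00694), but its members differed. HAND2 was at 0.18 and ESR1 at 0.13, while VIM was at −0.22, PGR at −0.12 and DES at −0.02. The 4 called markers missed the threshold in 8 of 13 alternatives for ACTG2, 7 of 12 for SPI1 and 5 of 12 for TAGLN. COL1A1 missed it in 2 of 12 and was at 0.28 in both (quantile normalization again, and genes averaged over their probe sets). Of the uterine markers 5 of 6 measured were above the median brightness, the exception being the progesterone receptor gene PGR. The part of RNA quality and of these cell types in the H2AZ1 and HMGB1 values was not tested.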

How the data were processed

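RNA of 6 hamster uterus samples was hybridised to a human Affymetrix array. The deposited log2 values were computed by the authors with Partek 6.6 and RMA, as the submitters' processing notes list. No source gives the log base, taken here as 2 from a range of 1.65 to 12.08. RMA equalises overall brightness between arrays, so a change in total RNA is not visible. The bright end was not fully equal: normalising by quantiles again moved the median difference of the brightest 1% from 0.016 to −0.037. From 22283 probe sets 68 controls were left out. Groups came from the sample titles and were compared by lmFit and eBayes of limma 3.58.1 (R 4.3.3), two-sided, with group as the only term. P-values were adjusted by Benjamini-Hochberg over all probe sets or all genes, at a threshold of 0.05. A gene was read at its brightest probe set. Members and lists were chosen with earlier results of these data known. Named genes were all members, list genes past the threshold or, under 3 of these, the 3 with the smallest p, and the 5 profiles nearest to H2AZ1.

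On simulated data of 22215 probe sets the fit recovered 44.8% of changes of 1.25-fold, 100% of 1.5-fold and 100% of 2-fold, all drawn from brighter probe sets, with 20 of 183 calls false and 0 calls with none changed. The share of false calls in this simulation was thus above the 0.05 that the threshold aims at. Replicate numbers were not taken as pairs, since no label ties them to animals and deviations from group means correlated at 0.054, −0.0025 and 0.070 for numbers 1, 2 and 3, although arrays 1 and 3 matched their own number best. A hamster gene of the same symbol was found for 8 of 10 members in the RefSeq annotation BCM_Maur_2.0. Planned motif counts in promoters were not run, and no sequences were used here. The number of arrays limits the precision.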

Additional observations from a re-analysis of the deposited data

How the results depend on the processing

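The count of 5 higher member probe sets was 5 with the replicate number as a block, after median centring and after cyclic loess. It was 4 after repeated quantile normalization, 4 with a filter at the median brightness, which removes 200853_at, and 3 to 4 when single arrays were left out, with 3 without implantation site 1 or interimplantation site 3. Without _x_at and _s_at probe sets it was 1, since only 5 members are left to test. The count of lower members was 0 in each. The 2 H2AZ1 probe sets passed in each of the alternatives in which they were tested, with differences of 0.60 to 0.67 and 0.91 to 1.24. As the members were chosen on these same arrays, this is a description only. SDC1 changed sign to −0.15 without _x_at and _s_at probe sets and to −0.021 with the mean of its probe sets. TLR2 ranged from −0.022 to 0.13 when single arrays were left out; the cause was not tested. CCNA2 missed the threshold with the mean of its probe sets (log2 0.41), and PCNA without implantation site 3 (0.48) or interimplantation site 3 (0.49).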

Other observations

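The second probe set of the histone chaperone gene NASP, 201970_s_at, which is dimmer than the one described, rose by a log2 difference of 0.61 (limma adjusted p = 0.00910 over all probe sets), and with the mean of both probe sets NASP passed as well (0.47, limma adjusted p = 0.0220). All 3 probe sets of NPM1 gave nearly the same difference, 0.31, 0.32 and 0.30, with none past the threshold. These were named after their values were seen.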
